A study of Mus musculus with 2 samples.

Results

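The 33 genes described here encode the steps by which a cell takes up glucose, breaks it down to pyruvate and exports lactate, and the genes that respond to low oxygen. They were taken by symbol from a fixed list, whatever their values, and all 33 were found among the 35208 gene rows of the count matrix. By role they are 4 transporters (Slc2a1, Slc2a3, Slc16a1, Slc16a3), 16 glycolytic enzymes or their regulators (Hk1, Hk2, Hk3, Gpi1, Pfkl, Pfkp, Pfkm, Pfkfb3, Aldoa, Tpi1, Gapdh, Pgk1, Pgam1, Eno1, Pkm, Ldha), 3 oxygen-sensing genes (Hif1a, Egln1, Egln3) and 10 hypoxia-response genes (Vegfa, Hilpda, Bnip3, Pdk1, Ndrg1, Ankrd37, Adm, P4ha1, Mxi1, Ddit4).

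Glycolysis yields ATP without oxygen, and neutrophils, which hold few mitochondria, are known to rely on it. Under normal oxygen, prolyl hydroxylases such as EGLN1 and EGLN3 mark the transcription factor HIF-1α, the product of Hif1a, for degradation. When oxygen falls, HIF-1α persists and switches on glucose transporters, most glycolytic enzymes and genes such as Vegfa and Egln3 itself. In activated macrophages inflammatory signals can raise HIF-1α as well.

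Cells came from ear skin with IgE-mediated chronic allergic inflammation (IgE-CAI). Mice of the BALB/c strain, either wild-type (WT) or Ccr2-/- (a germline knockout of the chemokine receptor that classical monocytes need to enter tissue), were sensitized intravenously with TNP-specific IgE (300 µg), and on the day after, TNP-conjugated ovalbumin (10 µg) was injected into the ear. Ears were taken on day 3 or day 5, and per the methods the mice were young adult males carrying, in the Ccr2-/- group, the Ccr2tm1Mae allele. The 4 groups (each genotype on each day) were hashtagged, mixed and run together on BD Rhapsody, a microwell system, as 1 cDNA library. Each group was thus 1 pool, the number of mice behind it is not given in the labels, all groups were challenged, and control ears were not analysed here. Within a day, a difference between genotypes has no replicate, and between days the pools serve as replicates of a genotype, so that p-values measure only the spread between these pools.

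Because HIF-1α binds DNA at the core letters ACGTG, the promoters of the members were searched for them on both strands, in the 250 bases before each start site of the RefSeq promoter table (build GRCm38.p6). The letters stood in 26 of the members' 47 promoters (55.3%), beside 5444 of all 32851 promoters (16.6%). By gene this was 22 of the 31 members in the table and 4998 of 27025 genes (18.5%). The list was drawn up from glycolysis and hypoxia-response genes, and promoters were not matched for base content. These shares thus describe the list and were not tested. Slc2a3 and Ndrg1 had no entry. A palindromic CACGTG holds the letters on both strands. The windows of 30 bases shown here are from 6 members whose levels in neutrophil-like cells are described below, with 1 match each in capitals, written CACGT where it lies on the opposite strand. Ldha, Slc16a3 and Pgk1 hold further matches.
Slc2a1, chr4:119108697-119108726, plus strand: gtcccgccccggACGTGctccccaggcccc
Slc16a3, chr11:120949028-120949057, plus strand: caggcagcggtgACGTGcgcgggggacgtg
Egln3, chr12:54204086-54204115, minus strand: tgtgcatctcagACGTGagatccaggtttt
Pkm, chr9:59657140-59657169, plus strand: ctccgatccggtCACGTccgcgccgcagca
Ldha, chr7:46845745-46845774, plus strand: ggcccagcctacACGTGggttcccgcacgt
Pgk1, chrX:106186938-106186967, plus strand: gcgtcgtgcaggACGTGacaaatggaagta
The first 4 of these genes were higher in neutrophil-like than in fibroblast-like cells and the last 2 were lower (next paragraphs), so the letters were present in members that differed in either direction. A match describes the sequence and does not show that a factor was bound.

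After assignment to pools and quality limits 7118 cells were kept, with 1037 to 2347 per pool. Clusters were built without any of the members and were named from marker genes, with the ending "-like" because the names rest on transcripts alone. Neutrophil-like cells numbered 53 and 6 in WT (day 3, then day 5) and 403 and 792 in Ccr2-/-. Monocyte-macrophage-like (Mo-Mac-like) cells numbered 471 and 451 in WT and 131 and 90 in Ccr2-/-, and there were 254 to 706 fibroblast-like cells in a pool. The 6 neutrophil-like cells of WT day 5 were left out of every test, so neutrophil tests rest on 3 pools. The targeted gene Ccr2 was at 946 and 678 CPM (reads scaled to a common total) in the WT pools of Mo-Mac-like cells, against 86.5 and 28.1 in Ccr2-/-. Read depth differed between types: the median per cell was 8258 to 9696 in neutrophil-like cells of those 3 pools, 48049 to 63838 in Mo-Mac-like cells and 82734.5 to 143064 in fibroblast-like cells. Free RNA was present: Col1a1, a fibroblast collagen, was at 263 to 410 CPM in neutrophil-like cells of those 3 pools and at 8662 to 17209 in fibroblast-like cells. Its part in any low level given here was not tested. The 8 neutrophil markers summed to 42937 to 69482 CPM in neutrophil-like cells and to 162 to 396 CPM in Mo-Mac-like cells. The 53 neutrophil-like cells of WT day 3 held more reads of the 9 Mo-Mac markers (2106 CPM, against 989 and 1159 in the Ccr2-/- pools) and 351 CPM of Ccr2, and the part of this in the values of that pool was not tested.

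The summed level of the 33 members hardly separated the cell types, whereas their makeup did. The values are CPM of the reads summed over all cells of a type in a pool, and since CPM are not divided by transcript length, levels of different genes are not compared. The sum was 5068 CPM (95% Poisson interval 4875 to 5267) in WT day 3 neutrophil-like cells, 5011 (4946 to 5076) in Ccr2-/- day 3 and 5081 (5033 to 5129) in Ccr2-/- day 5. In Mo-Mac-like cells it was 5192 in WT day 3, 3909 in WT day 5, 5197 in Ccr2-/- day 3 and 5310 in Ccr2-/- day 5. In fibroblast-like cells it was 3748, 3851, 4320 and 5415 in the same order. The mean log2 ratio was 0.19 ± 0.26 (SD, n = 3 pools) for neutrophil-like over fibroblast-like cells and -0.05 ± 0.01 (SD, n = 3) for neutrophil-like over Mo-Mac-like cells. Neither ratio was tested, and these intervals cover counting error only, on reads that include PCR copies. The fibroblast sums rested on deeply read cells: without cells of over 100000 reads they fell to 2778, 2241, 3151 and 3466 CPM, and the ratio of neutrophil-like to fibroblast-like cells rose to 0.69.

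**Figure D1:**
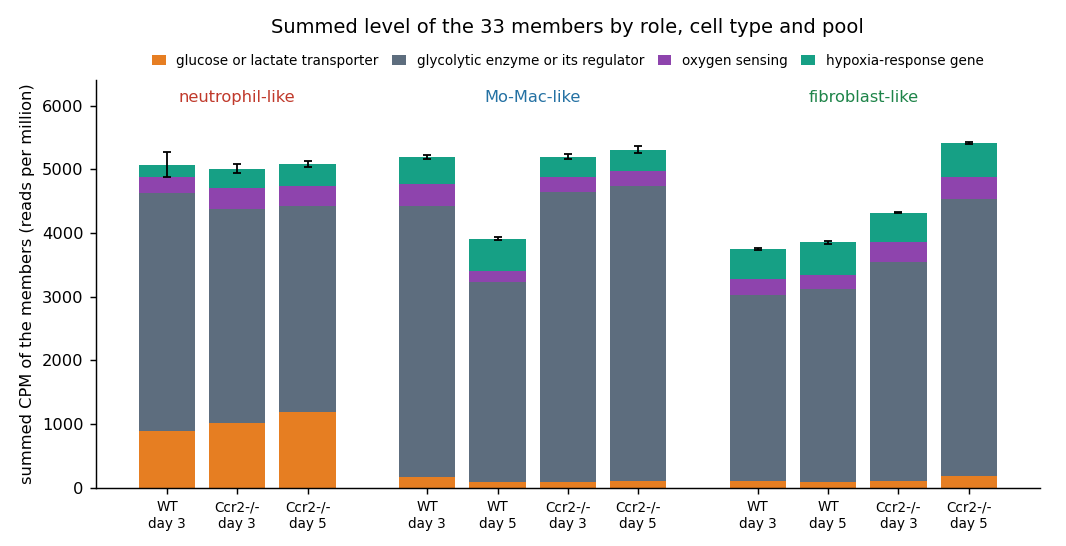
Bars give the summed CPM of the 33 members (y axis) in each pool, grouped by cell type and divided by role; black bars are 95% Poisson intervals of the total, and WT day 5 neutrophil-like cells (6 cells) are left out. Totals of neutrophil-like cells lie close to 5000 CPM, and the transporter share is far larger there (896 to 1188 CPM) than in the other types (94.0 to 190).

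The transporters set neutrophil-like cells apart. Their 4 genes summed to 896, 1017 and 1188 CPM in WT day 3 and the 2 Ccr2-/- pools, against 94.7 to 163 in Mo-Mac-like and 94.0 to 190 in fibroblast-like cells. Slc2a1 (chr4:119108711-119137983), which encodes the glucose transporter GLUT1, stood at 253, 374 and 362 CPM in these neutrophil-like pools. Its range was 25.2 to 62.3 in Mo-Mac-like and 20.1 to 39.2 in fibroblast-like cells, so every neutrophil pool lay above every pool of the other types. The fitted log2 difference was 3.06 (SE 0.32, adjusted p = 5.7e-05) over fibroblast-like cells and 3.15 (SE 0.44, adjusted p = 0.00108) over Mo-Mac-like cells, by edgeR's quasi-likelihood test with the pool as a block. Slc2a3, the gene of the high-affinity transporter GLUT3, was at 267, 98.3 and 152 CPM in neutrophil-like cells and at 17.2 to 32.4 in all Mo-Mac-like and fibroblast-like pools (log2 2.42, SE 0.44, adjusted p = 0.00162 over fibroblast-like; 2.50, SE 0.38, adjusted p = 0.00168 over Mo-Mac-like).

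Lactate transport went in opposite directions for its 2 genes. Slc16a3 (chr11:120948480-120960868), whose product MCT4 exports lactate from glycolytic cells, reached 376, 537 and 669 CPM in neutrophil-like cells, beside 15.9 to 52.4 in Mo-Mac-like and 4.45 to 19.0 in fibroblast-like cells. This was a log2 difference of 4.35 (SE 0.53, adjusted p = 0.000575) over Mo-Mac-like cells and 5.54 (SE 0.44, adjusted p = 1.14e-05) over fibroblast-like cells. Slc16a1, which encodes MCT1, a carrier of lactate and pyruvate in both directions, had 0 reads in WT day 3 neutrophil-like cells (the floor of 3 reads is 5.88 CPM) and 7.23 and 5.00 CPM in the Ccr2-/- pools, with 78.8% of the reads of Ccr2-/- day 3 from 1 cell. Fibroblast-like cells had 37.7 to 103 CPM of it and Mo-Mac-like cells 17.6 to 25.2. It was lower in neutrophil-like than in fibroblast-like cells (log2 -4.15, SE 0.63, adjusted p = 0.000591), while against Mo-Mac-like cells the difference missed the threshold (-2.21, SE 0.80, adjusted p = 0.0566) but passed it with plain library sizes, with DESeq2 and in thinned cells (adjusted p = 0.0434, 0.0159 and 0.0362). The Ccr2-/- neutrophil-like pools held 74.3 and 134 Slc16a3 reads per Slc16a1 read, Mo-Mac-like pools 0.629 to 2.64, and fibroblast-like pools 0.0870 to 0.449. With each cell thinned to 5000 reads, Slc16a3 was seen in 46.4% of 1142 neutrophil-like cells (the 6 of WT day 5 included), 9.79% of 1124 Mo-Mac-like cells and 3.03% of 1818 fibroblast-like cells (48.8%, 21.7% and 16.4% before thinning). Of these neutrophil-like cells 368 and 722 came from the Ccr2-/- pools, while 466 and 445 of the Mo-Mac-like cells came from WT. These percentages thus differ in genotype makeup as well as in type.

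At the entry to glycolysis the hexokinases, which phosphorylate glucose, divided by isoform. Hk3, the myeloid isoform, was at 311.7, 279 and 215 CPM in neutrophil-like cells, at 48.1 to 99.0 in Mo-Mac-like cells and at 0.187 to 0.844 in fibroblast-like cells. It was higher in neutrophil-like than in Mo-Mac-like cells (log2 1.90, SE 0.36, adjusted p = 0.0044). Hk1 and Hk2 did not pass the test in either neutrophil comparison, but without the WT day 3 pool Hk1 was higher than in both other types (log2 1.52 over fibroblast-like, adjusted p = 0.00623, and 2.78 over Mo-Mac-like, adjusted p = 0.00173); Hk2 ranged only from 32.0 to 53.3 CPM over the 11 pools of the 3 types. Among the phosphofructokinase genes Pfkl and Pfkp did not pass either, although Pfkp lay above every Mo-Mac-like and fibroblast-like pool. It was at 80.4, 67.9 and 66.7 CPM against 34.9 to 59.9, and it passed over fibroblast-like cells with library sizes, with DESeq2, with a hashtag ratio of 10, without WT day 3, without cells of over 100000 reads and in thinned cells (log2 0.98 to 1.15). Pfkm, the muscle isoform, was at 0.596 to 1.96 CPM in neutrophil-like cells, on 1, 3 and 5 reads, and at 8.94 to 16.1 in fibroblast-like cells (log2 -4.01, SE 0.80, adjusted p = 0.0026). Pfkfb3, which makes the activator of phosphofructokinase, stood at 96.1, 55.6 and 59.8 CPM in neutrophil-like and at 4.70 to 12.3 in fibroblast-like cells (log2 2.63, SE 0.54, adjusted p = 0.003). Against Mo-Mac-like cells its levels overlapped and it did not pass, but was called with DESeq2 (1.03, adjusted p = 0.0391) and without WT day 3 (1.02, 0.0309). It made up 0.570% to 2.78% of the members' sum in Mo-Mac-like pools and 1.11% to 1.90% in neutrophil-like ones. In WT day 3 neutrophil-like cells 51.0% of its reads came from 1 cell.

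From aldolase to enolase every member was fitted lower in neutrophil-like cells, and the last step before lactate was inverted. Gapdh was at 688, 378 and 419 CPM in neutrophil-like cells, 651 to 964 in Mo-Mac-like and 572 to 896 in fibroblast-like cells, so the WT day 3 pool overlapped the others while the Ccr2-/- pools lay below (log2 -0.93, SE 0.28, adjusted p = 0.0295 over Mo-Mac-like; -0.84, SE 0.29, adjusted p = 0.0318 over fibroblast-like). Neither passed without the Ccr2-/- day 3 pool (adjusted p = 0.257 and 0.201) or the Ccr2-/- day 5 pool (0.239 and 0.328), and the second was -0.02 without cells of over 100000 reads. Tpi1 (triosephosphate isomerase) was at 135, 62.0 and 45.2 CPM in neutrophil-like cells and at 180 to 282 in the Mo-Mac-like and fibroblast-like pools. Pgk1 (chrX:106187100-106203699), which makes the first ATP of the pathway, was at 106, 108 and 88.1 CPM against 163 to 300. Both were lower than in fibroblast-like cells (Tpi1 -1.84, SE 0.40, adjusted p = 0.0043; Pgk1 -1.56, SE 0.29, adjusted p = 0.00196) and lower than in Mo-Mac-like cells (Tpi1 -1.73, SE 0.37, adjusted p = 0.00759; Pgk1 -1.34, SE 0.29, adjusted p = 0.00848). Without the Ccr2-/- day 5 pool Tpi1 passed in neither comparison (adjusted p = 0.0593 against fibroblast-like and 0.0685 against Mo-Mac-like cells) and Pgk1 did not pass against Mo-Mac-like cells (0.0893). Without cells of over 100000 reads Pgk1 did not pass against fibroblast-like cells (-0.70, adjusted p = 0.0857). Aldoa and Pgam1 passed only against fibroblast-like cells, and Eno1 only against Mo-Mac-like cells (log2 -1.21, SE 0.27, adjusted p = 0.00911), and none of these 3 passed without either Ccr2-/- pool. Aldoa and Pgam1 also missed the threshold with library sizes, with DESeq2 and with a hashtag ratio of 10, and were at -0.48 and -0.04 (adjusted p = 0.176 and 0.915) without cells of over 100000 reads. A row of the near-identical Eno1b took 32.0% to 34.1% of the reads of both in each of these pools, and copies of Gapdh took 5.61% as many reads as Gapdh, so levels of these genes are uncertain to that extent.

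Pkm (chr9:59656368-59679375), which encodes pyruvate kinase, stood at 1180, 1406 and 1420 CPM in neutrophil-like cells, at 828, 443, 783 and 896 in the Mo-Mac-like pools and at 390, 400, 382 and 617 in the fibroblast-like pools. It was higher than in fibroblast-like cells (log2 1.28, SE 0.24, adjusted p = 0.00194) and, near the threshold, than in Mo-Mac-like cells (0.73, SE 0.25, adjusted p = 0.0477, and 0.282 and 0.271 without the Ccr2-/- day 3 or day 5 pool). Ldha (chr7:46841475-46855627), which turns pyruvate into lactate, was at only 120, 155 and 139 CPM, beside 341 to 528 in Mo-Mac-like and 457 to 814 in fibroblast-like cells. It was lower in both comparisons (-2.59, SE 0.26, adjusted p = 4.34e-05 over fibroblast-like; -1.80, SE 0.28, adjusted p = 0.00178 over Mo-Mac-like). Per Ldha read there were 9.87, 9.07 and 10.2 Pkm reads in the neutrophil-like pools, 1.30 to 1.79 in Mo-Mac-like pools and 0.527 to 0.875 in fibroblast-like pools. This read ratio does not depend on scaling between samples, and its ranges did not overlap. In the same cells thinned to 5000 reads, all pools included, Ldha was seen in 17.4% of neutrophil-like, 63.9% of Mo-Mac-like and 76.5% of fibroblast-like cells, while Pkm was seen in 79.0%, 72.8% and 65.5% (unthinned, Ldha 22.2%, 83.3% and 94.0%, and Pkm 81.0%, 89.2% and 91.8%). As for Slc16a3, the genotype makeup of these cells differed between types.

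**Figure D2:**
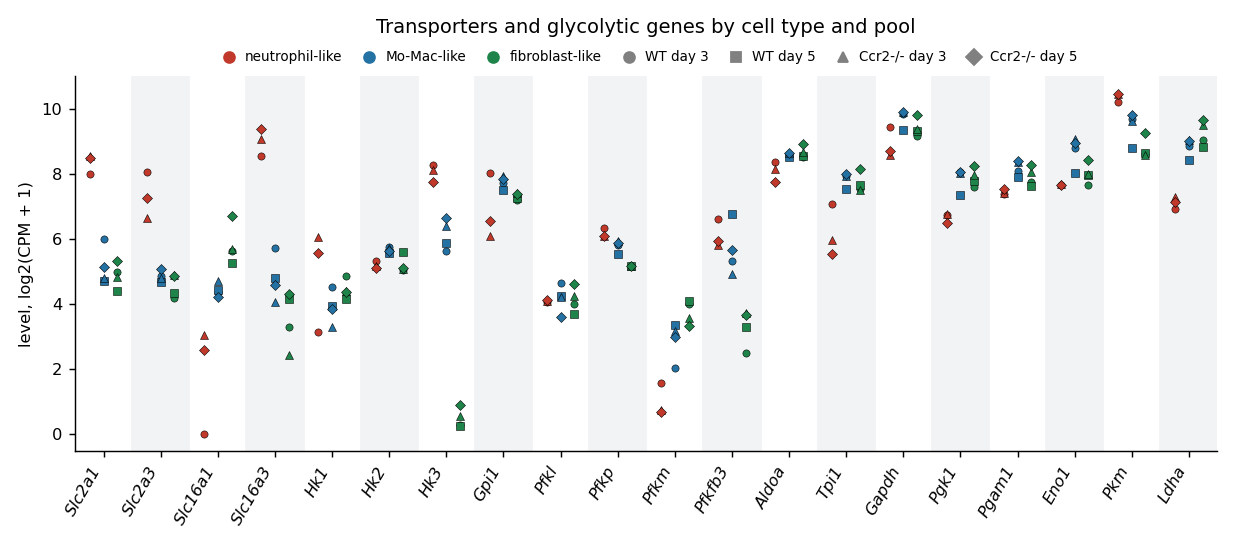
Levels of the 4 transporters and 16 glycolytic genes on a log2(CPM + 1) axis, in pathway order, with a point per pool (marker shape) and cell type (colour). Neutrophil-like points lie above all others for Slc2a1, Slc2a3, Slc16a3, Hk3, Pfkp and Pkm and below all others for Slc16a1, Pfkm, Aldoa, Tpi1, Pgk1, Pgam1 and Ldha.

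Of the oxygen sensors, Hif1a had overlapping levels in the 3 types: it was at 177 to 233 CPM in neutrophil-like, 119 to 274 in Mo-Mac-like and 159 to 269 in fibroblast-like cells (adjusted p = 0.171 for neutrophil-like against fibroblast-like and 0.979 against Mo-Mac-like cells). Between Mo-Mac-like and fibroblast-like cells it was called lower without WT day 3 (-0.60, adjusted p = 0.019) and higher without cells of over 100000 reads (0.93, adjusted p = 0.0194). The hydroxylases diverged. Egln1 was at 9.20 to 15.8 CPM in neutrophil-like and 59.9 to 63.6 in fibroblast-like cells (log2 -2.64, SE 0.45, adjusted p = 0.00107). Egln3 (chr12:54178981-54203860) was at 23.5, 97.9 and 116 CPM in neutrophil-like cells, at 0.0928 to 4.39 in Mo-Mac-like and at 1.12 to 1.83 in fibroblast-like cells (log2 5.52, SE 0.62, adjusted p = 8.95e-05 over fibroblast-like; 5.37, SE 1.19, adjusted p = 0.00872 over Mo-Mac-like). All Egln3 reads of the WT day 3 neutrophil-like pool came from 1 of 53 cells, whereas in the Ccr2-/- pools, thinned to 5000 reads, 44 of 368 and 82 of 722 cells had a read. Without the WT day 3 pool both differences passed the test, at 6.37 and 6.99.

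Of the 10 hypoxia-response genes 4 were lower in neutrophil-like than in fibroblast-like cells, beside 37.4% of all 18729 genes. Higher than in Mo-Mac-like cells was 1, Vegfa, beside 12.2% of 15872 genes. Both counts are thus near the shares of genes at large. Adm, the gene of the vasodilator peptide adrenomedullin, was at 75.4, 40.9, 135 and 119 CPM in fibroblast-like cells and at 0 to 4.29 in neutrophil-like cells (log2 -5.44, SE 0.53, adjusted p = 3.62e-05). P4ha1, a prolyl hydroxylase of collagen, Ddit4, an inhibitor of mTORC1, and Bnip3, a mitophagy receptor, were also lower in neutrophil-like than in fibroblast-like cells, with log2 differences of -2.31, -2.61 and -1.28 (adjusted p = 0.0112, 0.00386 and 0.0356). In WT day 3 neutrophil-like cells P4ha1 and Ddit4 were each read in 1 cell only, and Bnip3 did not pass without either Ccr2-/- pool. Bnip3 also missed the threshold with library sizes, with DESeq2 (adjusted p = 0.0534), without the filter on low counts and with a hashtag ratio of 10 (0.252). The same held without cells of over 100000 reads (0.217) and in thinned cells. Vegfa, the vascular growth factor, was at 58.8, 52.1 and 41.5 CPM in neutrophil-like cells and at 25.2, 41.7, 5.66 and 3.63 in Mo-Mac-like cells. It was higher in neutrophil-like than in Mo-Mac-like cells (log2 2.73, SE 0.64, adjusted p = 0.0111), and did not pass without the Ccr2-/- day 5 pool (adjusted p = 0.0674). Hilpda, which blocks the breakdown of lipid droplets, was at 3.92, 112 and 99.9 CPM in neutrophil-like cells, with all reads of WT day 3 from 1 cell, and did not pass. Without WT day 3 it was higher than in fibroblast-like (log2 2.65, adjusted p = 0.000388) and Mo-Mac-like cells (1.32, adjusted p = 0.00597), and in thinned cells it passed over fibroblast-like cells (2.26). Pdk1, Ndrg1, Ankrd37 and Mxi1 did not pass in either neutrophil comparison, though Mxi1 was called over fibroblast-like cells without WT day 3 (1.42, adjusted p = 0.0163) and with DESeq2 (1.28). Ndrg1 was called lower than in Mo-Mac-like cells with library sizes (-1.31, adjusted p = 0.0358), a per-cell marker gate (-2.07, 0.0354) and without cells of over 100000 reads (-1.48, 0.0429). Pdk1 was called lower than in fibroblast-like cells with DESeq2 (-1.70, adjusted p = 0.0461).

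**Figure D3:**
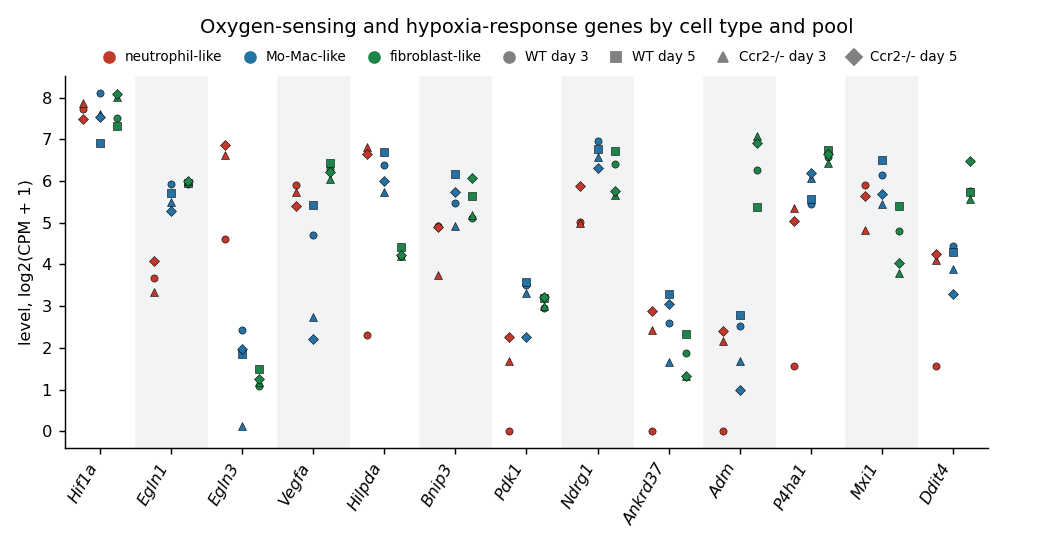
Levels of the 3 oxygen-sensing and 10 hypoxia-response genes on a log2(CPM + 1) axis, with a point per pool (marker shape) and cell type (colour). Egln3 is highest and Egln1 lowest in neutrophil-like cells, Adm is highest in fibroblast-like cells, and Hif1a points of the 3 types overlap.

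In numbers, 7 of the 33 members were higher in neutrophil-like than in fibroblast-like cells (21.2%, beside 17.5% of all 18729 genes tested) and 13 were lower (39.4%, beside 37.4%). Against Mo-Mac-like cells 7 were higher (21.2%, beside 12.2% of 15872 genes) and 6 lower (18.2%, beside 24.3%). The members were thus called about as often as genes at large against fibroblast-like cells, and what is described here is which members they were. Leaving out 1 pool moved the counts: against fibroblast-like cells 11 were higher without WT day 3 and 7 lower without Ccr2-/- day 5, and against Mo-Mac-like cells 3 were lower without Ccr2-/- day 3 and 1 without Ccr2-/- day 5. The shares of all genes called without those pools are not given here, so these moves are not read against genes at large. All 7 calls above fibroblast-like cells were also made under all 14 other settings tried, of which 2 (without WT day 5, and at least 30 cells) left the neutrophil fits as they were. So were 6 of the 13 calls below, 5 of the 7 calls above Mo-Mac-like cells and 1 of the 6 below (Ldha). Scaling matters to these counts: the median log2 difference of all genes between neutrophil-like and fibroblast-like cells was -0.95 with TMM and -0.69 with plain library sizes, while the median of the members was -0.74 and -0.47.

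Other genes of the pathways, taken from lists by symbol, were spread over both directions. Of 25 further glucose-metabolism genes tested between neutrophil-like and fibroblast-like cells 4 were higher and 9 lower, beside 17.5% and 37.4% of all 18729 genes. Among the 25, Slc2a6, a hexose transporter of lysosomes, was higher (log2 5.37, SE 0.43, adjusted p = 1.22e-05), as was Pfkfb4, an isoenzyme of Pfkfb3 (3.82, SE 0.40, adjusted p = 5.7e-05). Pygl, the liver isoform of glycogen phosphorylase, was higher in neutrophil-like than in Mo-Mac-like cells (4.07, SE 0.38, adjusted p = 0.000204). Of 27 further hypoxia genes 3 were higher and 11 lower than in fibroblast-like cells, beside the same shares of all genes. Among the lower ones Stc2, Plod2 and P4ha2 had log2 differences of -6.19 to -5.12. Both lists were thus called about as often as genes at large, and the genes named are among those of largest fold.

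Mo-Mac-like and fibroblast-like cells, compared in all 4 pools, differed in other members. Of the 33, 5 were higher in Mo-Mac-like cells (15.2%, beside 17.0% of 19378 genes) and 8 lower (24.2%, beside 23.3%). Without the WT day 5 pool 10 were higher, and the share of all genes in that fit is not given here. Higher were Hk3 (log2 7.32, SE 0.26), Pfkfb3 (2.35, SE 0.38, adjusted p = 0.00269), Hilpda, Mxi1 and Pfkp. Hilpda was at 82.9, 102, 52.5 and 62.9 CPM in the Mo-Mac-like pools and at 17.3 to 20.2 in fibroblast-like cells (log2 1.85, SE 0.16, adjusted p = 0.000159). The study had picked Hilpda on these same cells as a gene of anti-inflammatory macrophages, so this difference is not independent evidence. Mxi1, a MYC antagonist, was at 42.7 to 89.4 CPM against 12.8 to 41.4 (log2 1.33, SE 0.17, adjusted p = 0.000923), and at 0.56 (adjusted p = 0.0567) without cells of over 100000 reads. Lower were Adm (log2 -4.74, SE 0.63), Vegfa (-2.64, SE 0.54, adjusted p = 0.00768), Ddit4 (-2.09, SE 0.32), Slc16a1, P4ha1, Hk1, Egln1 and Ldha. The Ldha difference (-0.59, SE 0.11, adjusted p = 0.00591) turned to 0.10 without cells of over 100000 reads. Only 3 of the 5 higher calls (Hk3, Pfkfb3, Hilpda) and 4 of the 8 lower ones (Adm, Vegfa, Ddit4, P4ha1) were made under all 14 other settings, of which at least 30 cells left this fit as it was. Slc2a1, Slc2a3 and the enzymes from Aldoa to Pkm did not pass the test here (adjusted p from 0.0529 for Pkm to 0.986 for Tpi1). Without cells of over 100000 reads, however, Pkm (adjusted p = 7.02e-05), Eno1 (log2 1.23), Gapdh (0.97), Pgk1 (0.82), Pgam1 (0.62) and Tpi1 (0.61) were higher in Mo-Mac-like cells, and Pkm was also higher with library sizes (0.70), DESeq2 (0.58) and thinned cells (0.90).

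Within the neutrophil-like cells 2 clusters could be set side by side, led by Il1a, Clec7a and Il1rn in the first and by S100a9 and S100a8 in the second. These values are a description, without a test. In the Ccr2-/- day 5 pool Slc16a3 was at 459 CPM in the first and 938 in the second cluster, and Slc2a3 at 71.2 and 254. In Ccr2-/- day 3 Slc16a3 had the other order, with 587 and 441 CPM. Egln3 (127 and 136 CPM against 41.4 and 90.3), Hilpda (130 and 164 against 75.7 and 17.6) and Pkm (1523 and 1521 against 1179 and 1290) were higher in the first cluster in both Ccr2-/- pools. Pfkfb3 was lower there in both, with 41.4 and 53.1 CPM against 83.5 and 68.3.

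Between genotypes no member passed the threshold, with 1 residual degree of freedom among the pools. In fibroblast-like cells edgeR called 0 members and 0% of 19981 genes in either direction, at unadjusted p under 0.05 there were 11 members higher and 4 lower in Ccr2-/-, beside 4022 genes in either direction, and DESeq2 called 6 and 2, beside 781 and 845 genes. Adm was at 135 and 119 CPM in the Ccr2-/- pools and at 75.4 and 40.9 in WT (log2 1.19, SE 0.19, adjusted p = 0.0913). Ldha was at 726 and 814 against 527 and 457 (0.64, SE 0.11, adjusted p = 0.1), and Hif1a at 258 and 269 against 183 and 159 (0.63, SE 0.10, adjusted p = 0.099). Mxi1 had 12.8 and 15.5 CPM against 26.8 and 41.4 (-1.24, SE 0.16, adjusted p = 0.0888), and Ndrg1, a stress-induced gene, 49.6 and 52.9 against 83.6 and 104 (-0.87, SE 0.12, adjusted p = 0.0888). For these 5 genes both pools of a genotype lay on the same side. The makeup of the fibroblast-like cells differed as well: a cluster led by Saa3, Cxcl5 and Reg1 held 102 and 54 of them in the WT pools and 436 and 348 in the Ccr2-/- pools, and its part in these values was not tested. All 5 passed when DESeq2 was used, when low genes were not filtered or when each cell was thinned to 5000 reads. Fibroblast-like cells were read more deeply in the Ccr2-/- pools (median 139572 and 143064 reads) than in WT (84158.5 and 82734.5), and with thinned cells the difference was 1.02 for Adm, 0.74 for Ldha and -1.82 for Mxi1.

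In Mo-Mac-like cells edgeR also called 0 members, beside 0.371% of 16450 genes higher and 0.334% lower in Ccr2-/-. At unadjusted p under 0.05 there were 5 members in each direction, beside 2768 genes in either, and DESeq2 called 1 higher (Hk3) and 1 lower (Vegfa), beside 388 and 332 genes. Vegfa came closest: it was at 25.2 and 41.7 CPM in WT and at 5.66 and 3.63 in Ccr2-/- cells (log2 -2.75, SE 0.43, adjusted p = 0.0521). The makeup of the Mo-Mac-like cells differed between genotypes, as late monocyte-derived macrophages numbered 25 and 115 in the WT pools and 1 and 4 in the Ccr2-/- pools. Within early monocyte-derived macrophages Vegfa was at 18.1 and 17.6 CPM in WT and at 7.81 and 4.40 in Ccr2-/- cells, and within resident-like macrophages at 8.86 and 8.50 against 2.86 and 2.44. The resident-like subset was itself made of different clusters: the one led by Pfkfb3, Rab7b and Spic held 21 and 100 WT and 2 and 2 Ccr2-/- cells, and one with the cell-cycle genes Ube2c and Cdk1 held 10 and 2 against 34 and 17. The part of this in the Vegfa values was not tested. Hilpda had 52.5 and 62.9 CPM in Ccr2-/- against 82.9 and 102 (adjusted p = 0.182), and Mxi1 42.7 and 50.2 against 69.8 and 89.4 (adjusted p = 0.154). Whether the genotype difference itself differed between Mo-Mac-like and fibroblast-like cells was tested as an interaction: 0 members passed, with Vegfa (adjusted p = 0.2) and Adm (adjusted p = 0.224) nearest. By edgeR 6 members had an unadjusted p under 0.05 in that test, beside 1675 of 19378 genes, and DESeq2 was not run for it.

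**Figure D4:**
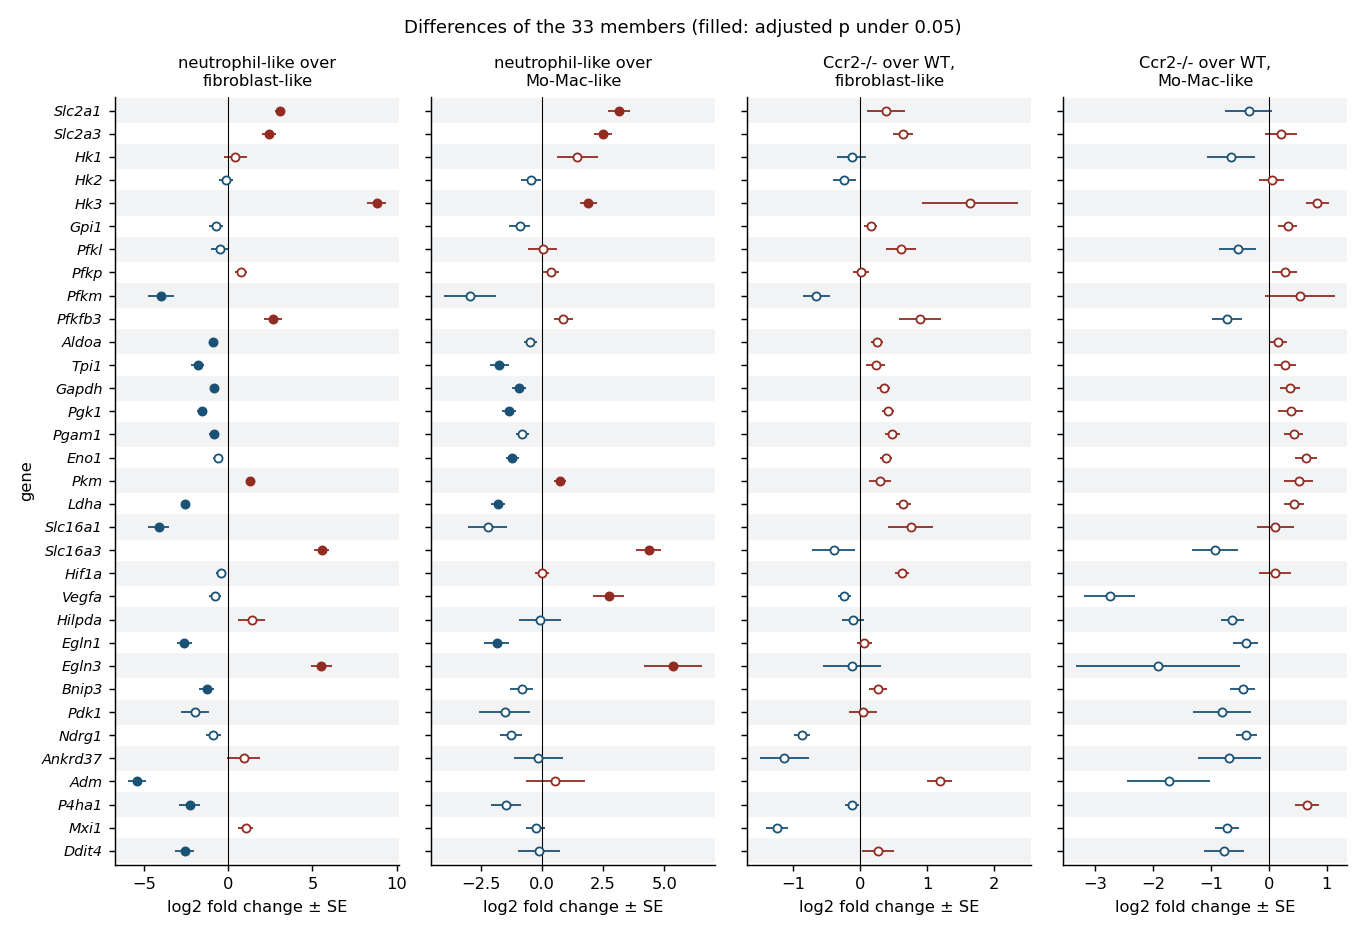
Fitted log2 fold changes (x axis) with standard errors for the 33 members in 4 comparisons, filled where the adjusted p is under 0.05; each panel has its own x scale. Filled points occur in both neutrophil panels and in neither genotype panel.

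Classical monocytes that enter the lesion become macrophages (CMDMs), here split into early and late ones. From classical monocyte-like cells to resident-like macrophages, no step had a member past the threshold. The study reported that Hilpda rose between its classical monocyte and early CMDM clusters. Here Hilpda was called higher at that step only when low genes were not filtered (log2 1.61, SE 0.47, adjusted p = 0.0302). The study's statement rests on single-cell levels in its own clusters, and this test on sums per pool of subsets drawn otherwise. A miss here therefore does not contradict it. Cells numbered 129, 24, 11 and 7 (monocyte-like), 132, 9, 40 and 29 (early CMDM-like), 25 and 115 (late CMDM-like, WT pools only) and 65, 173, 62 and 36 (resident-like) in the pools. In the step to early CMDM-like cells 0 members were called, beside 0.379% of 13987 genes higher and 1.47% lower, in the step to late CMDM-like cells 0 beside 0% in either direction, and in the contrast of resident-like with late CMDM-like cells 0 beside 0.00715% higher and 0% lower. At unadjusted p under 0.05 there were 5, 1 and 2 members in the 3 steps, beside 2059, 757 and 410 genes. DESeq2 called 2, 0 and 0 members, beside 378 genes higher and 694 lower in the first step, 71 and 26 in the second, and 14 and 17 in the third.

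Within each pool the summed members were lower in resident-like than in early and late CMDM-like cells. They were at 3125, 2714, 4652 and 4349 CPM, against 6302 and 4292 in late CMDM-like cells of the WT pools and 5975, 5145, 6429 and 7047 in early CMDM-like cells. The log2 ratio of resident-like to late CMDM-like sums was -1.01 and -0.66, and its mean was only -0.24 with a mitochondrial limit of 10%. That of early CMDM-like to monocyte-like sums was 0.14, -0.53, 0.28 and 0.66 in the 4 pools. These ratios were not tested. Hif1a was at 67.9, 74.9, 65.7 and 51.8 CPM in resident-like cells, and at 243 and 132 in late CMDM-like, 356, 203, 477 and 532 in early CMDM-like and 378, 112, 283 and 100 in monocyte-like cells, with no overlap. Its difference of resident-like from late CMDM-like cells was fitted at -1.50 (SE 0.50, unadjusted p = 0.00891, adjusted p = 1). Slc16a3 was at 5.44 to 9.40 CPM in resident-like cells and at 20.3 to 63.7 in early and late CMDM-like cells (unadjusted p = 0.0211, adjusted p = 1). Pkm was at 261 to 686 CPM in resident-like cells and at 485 to 1445 in early and late CMDM-like cells, with the order resident-like below late CMDM-like in both WT pools (log2 -0.79, SE 0.38, adjusted p = 1). Some members were called under other settings, and the cause of this was not tested. At a Leiden resolution of 2, Pkm (-1.49), Aldoa, Gapdh, Pgk1 and Pgam1 were lower in resident-like than in late CMDM-like cells. Pkm was also called with a per-cell marker gate (-1.16) and with a hashtag ratio of 10 (-1.63). With that ratio Slc2a1 was lower as well (-5.01, SE 0.81, adjusted p = 0.0211).

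Pfkfb3 did not share this pattern. In WT day 5 it was at 70.3 CPM in monocyte-like, 208 in early CMDM-like (9 cells), 96.2 in late CMDM-like cells and 155 in the resident-like ones, and in WT day 3 at 32.5, 21.7, 47.9 and 66.3. In each of these subsets the WT day 5 value was thus above that of WT day 3, which is 1 pool against 1 pool and has no test. A resident-like cluster, whose own leading genes by fold were Pfkfb3 itself, Rab7b and Spic, held 210.5 CPM in WT day 5 (100 cells, 95% interval 197 to 225) and 74.3 in WT day 3 (21 cells). As Pfkfb3 is among the genes that lead this cluster, its level there is a description. Slc2a1 was at 129, 102, 207 and 58.0 CPM in monocyte-like cells, at 22.3 and 24.6 in late CMDM-like cells, and resident-like cells had 2.0 to 14.8 CPM. Ndrg1 was highest in the monocyte-like cells of 3 pools (170, 385 and 528 CPM) and at 37.9 in the fourth, which held 7 such cells.

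Across the 13 named cell types with at least 10 cells in 2 or more pools, the neutrophil-like cells had the highest median level of 7 members (Slc2a1, Hk3, Pfkfb3, Pkm, Slc16a3, Hilpda and Egln3). For the first of these the next type, basophil-like cells, had 45.7 to 167 CPM over 3 pools against 253 to 374, and for Slc16a3 60.1 to 93.4 against 376 to 669, without overlap. Egln3 was not far lower in lymphatic endothelial-like cells, at 18.0 to 102 CPM. Basophil-like cells led for Slc2a3 (227 to 333 CPM), Hk2, Gpi1, Pfkp (353 to 411) and Ddit4 (309 to 489). Mast-cell-like cells led for Hk1, Pfkm and Tpi1, for Ldha, with 920 to 1795 CPM, and for Ndrg1, with 494 to 1198 against 400 to 486 in lymphatic endothelial-like cells. Slc16a1 was highest in keratinocyte-like cells (135 to 221 CPM). Fibroblast-like cells led for Vegfa, Adm and P4ha1. Muscle-like cells, in 2 pools, led for Aldoa, Gapdh, Pgk1, Pgam1 and Egln1. These ranks are of medians over pools and were not tested.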

How the data were processed

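Raw read counts were deposited: the authors gave a cDNA matrix of genes by cell barcodes and a table of hashtag antibodies by barcodes. Per the methods, reads were trimmed with cutadapt, aligned to Ensembl RNA of GRCm38.p6 (release 101) with Bowtie2, and barcodes were kept down to the knee plot's inflection. Whether the deposited matrix precedes the background correction named there is not given in the sources used here. Counts are reads, not molecules, and 92.3% of barcodes had a Col1a1 read. The 9 further hashtag columns were not used.

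The members and lists were chosen with earlier results of these data known. A barcode was given to the hashtag whose depth-scaled count was at least 3 times the next, with at least 10 hashtag reads, 200 genes and at most 20% mitochondrial reads. Of 8953 barcodes 760 had too few hashtag reads and 570 several hashtags (left out as doublets), and 7118 cells were kept (3113 to 713596 reads each, 68064673 to 162572556 per pool). Log CPM of 2000 variable genes, without the members, related genes and Ccr2, gave 30 principal components and Leiden clusters at resolution 1 (scanpy 1.11.5), named where at least 3 markers passed. A cluster stayed unnamed if its 10 leading genes held more markers of another type. The same held if it was over 3 times shallower than its pools' medians with no own marker among those genes. Mo-Mac-like cells were clustered again.

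Reads were summed per pool and type (at least 10 cells) or subset (5), and tested over all genes with edgeR 4.0.16 (quasi-likelihood, TMM, filterByExpr, Benjamini-Hochberg, adjusted p under 0.05), with the pool as a block or, for genotype, day as a covariate. Levels of all 33 members are named by rule, and of pathway lists up to 4 genes of largest fold, of which 1 is not reported here. On counts simulated for 15872 genes of the neutrophil-like against Mo-Mac-like design, 74.2% of genes changed by a log2 of 4 and 37.3% of those changed by 2 were recovered, with 10 false calls among 15672 unchanged genes. Of genes changed by a log2 of 1 only 5.97% were recovered, so a member that did not pass may still differ. Far fewer genes were changed there than were called in the data, and pools were drawn alike. DESeq2 1.42.0, other scalings, filters, gates, resolutions, depths and leaving out pools were alternatives. Gene positions are from GENCODE M21 (GRCm38), which is not the release aligned to.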

Additional observations from a re-analysis of the deposited data

How the results depend on the processing

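Of 644 values of single members under other settings, 72 kept direction but missed the threshold. The 571 that kept both include those from settings that left a fit as it was (at least 30 cells in the 3 comparisons of types, and without WT day 5 in both neutrophil comparisons). Ldha between Mo-Mac-like and fibroblast-like cells turned to 0.10 without cells of over 100000 reads. The causes of the changes below were not tested. The mean log2 ratio of summed CPM moved, without cells of over 100000 reads, to 0.69 for neutrophil-like over fibroblast-like and to 0.74 for Mo-Mac-like over fibroblast-like cells. For neutrophil-like over Mo-Mac-like cells it was -0.11 with a hashtag ratio of 10, -0.12 with a per-cell marker gate, -0.076 with a mitochondrial limit of 10%, -0.0084 as a mean of cells, -0.14 without the 50 most read genes and 0.089 without Gapdh. A hashtag ratio of 10 gave 0.80 for late over early CMDM-like and -1.47 for resident-like over late CMDM-like cells; resolution 2 gave 0.24 for the first and the mitochondrial limit -0.24 for the second.

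Counts of members called moved as follows. Calls of all genes are given for some settings only, so these counts are not read as moves of the members alone. Below fibroblast-like cells 8 were called in neutrophil-like cells without the deep cells, and below Mo-Mac-like cells 10 with plain library sizes. For the latter, all genes called moved as well, from 3857 in the main fit to 4181. Above fibroblast-like cells, Mo-Mac-like cells had 11 with library sizes, 9 with DESeq2, 8 with a hashtag ratio of 10, 8 with the gate, 14 without the deep cells and 10 in thinned cells, with 5 lower without the deep cells. All genes called higher in this comparison went from 3289 in the main fit to 4024 with library sizes and 3846 with DESeq2. Leaving out 1 pool gave 7 to 11 higher and 7 to 14 lower for neutrophil-like against fibroblast-like, 1 to 8 lower against Mo-Mac-like (lowest without Ccr2-/- day 5), and 4 to 10 higher for Mo-Mac-like against fibroblast-like cells. Between genotypes, fibroblast-like cells had 6 higher and 2 lower with DESeq2, 3 and 2 without the filter, and 6 and 2 in thinned cells. Mo-Mac-like cells had 1 higher and 1 lower with DESeq2, and 1 lower without the filter and 1 at resolution 2. Early CMDM-like against monocyte-like cells had 1 higher and 1 lower with DESeq2, 1 higher without the filter and 1 lower in thinned cells. Late against early CMDM-like cells had 1 higher with a hashtag ratio of 10. Resident-like against late CMDM-like cells had 2 lower with that ratio, 1 with the gate and 5 at resolution 2. Keeping only the largest cluster of each subset, chosen after seeing the data, changed none of the subset counts. Genotype fits without 1 pool leave no residual degree of freedom and were not run. Depth limits the neutrophil values of WT day 3 most, with 53 cells.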
